A study of Mus musculus with 19 samples.

Results

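The genes described are the adult globins and a set of genes of red cell precursors, taken from the deposited table of counts and FPKM by their names. The rule named 9 genes, and 8 of them were among the 36682 genes of that table. The adult globins were Hba-a1, Hba-a2, Hbb-bs and Hbb-bt, and the precursor genes were Alas2, Slc4a1, Klf1 and Epor. Ahsp was not analysed here. All 8 genes passed the filter on low counts.

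The samples were dorsal root ganglia, which hold the cell bodies of sensory neurons, from 19 male mice homozygous for the MaFIA (macrophage Fas-Induced apoptosis) transgene. The transgene is known to place a Fas-based suicide receptor under the Csf1r promoter, so the dimerizing drug AP20187 kills cells that use this promoter, which include monocytes, macrophages and part of the granulocytes. Every mouse, controls included, carried it. The DMM groups had destabilization of the medial meniscus, a knee operation that leads to osteoarthritis, and received AP20187 (n = 5) or vehicle (n = 5) 8 weeks later. The naive groups were of matching age and also received AP20187 (n = 4) or vehicle (n = 5). Injections were intraperitoneal, daily for 5 days. Ganglia L3, L4 and L5 were pooled, from the operated side after DMM (the side in naive mice is not given in the sources used here), and sequenced as bulk poly(A) RNA. Each numbered sample was taken as 1 mouse, and mice are named by group and by that number.

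Red cells arise in the bone marrow. Erythropoietin binds its receptor Epor on early precursors, and the transcription factor Klf1, with Gata1, then switches on the genes of the mature cell. Alas2 starts heme synthesis in the erythroid line, the alpha chains (Hba) and beta chains (Hbb) bind that heme to form hemoglobin, and Slc4a1 (band 3) is the anion exchanger of the red cell membrane. Reticulocytes in blood have lost the nucleus but still hold globin and Alas2 mRNA, whereas Epor and Klf1 mRNA belong to nucleated precursors. Sensory neurons and glia of the ganglion are not red cell producers, and these transcripts are known mainly from cells of blood and marrow. Because the samples are bulk RNA, fewer cells of a type and less RNA per cell cannot be told apart.

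By the positions in the deposited table, on build GRCm39 per the submitters' processing notes, both alpha globin genes lay on the plus strand of chromosome 11: Hba-a1 (ENSMUSG00000069919) at 11:32233511-32234465 and Hba-a2 (ENSMUSG00000069917) at 11:32246489-32247298. The beta globin genes lay on the minus strand of chromosome 7, with Hbb-bs (ENSMUSG00000052305) at 7:103475741-103477135 and Hbb-bt (ENSMUSG00000073940) at 7:103461731-103463203. Alas2 (ENSMUSG00000025270) was at X:149330371-149353634 on the plus strand and Slc4a1 (ENSMUSG00000006574) at 11:102239650-102256106 on the minus strand. Klf1 (ENSMUSG00000054191) was at 8:85628557-85631924 on the plus strand and Epor (ENSMUSG00000006235) at 9:21870193-21874802 on the minus strand. All of these are protein-coding genes.

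The promoters are shown as a description of these genes, and their part in the levels across libraries was not tested. RefSeq promoters of build GRCm38.p6 matched 7 of the 8 genes. Each sequence is the 150 bases before the start of transcription, 5′ to 3′ on the strand of the gene. Capitals mark 4 kinds of short words searched on both strands. The GATA words were AGATAA and AGATAG, and also TGATAA and TGATAG. For the second kind, which carries the letters CACCC, the search took CCACCC or else CACACCC. The remaining kinds were the word CCAAT and the TATA-like word ATATAA. Words of the CACCC kind are those that Klf1 is known to bind. These windows were chr11:32283522-32283671 for Hba-a1, chr7:103827929-103828078 for Hbb-bs, chr7:103813924-103814073 for Hbb-bt, chrX:150547267-150547416 for Alas2, chr8:84901832-84901981 for Klf1 and chr9:21963577-21963726 for Epor.
Hba-a1: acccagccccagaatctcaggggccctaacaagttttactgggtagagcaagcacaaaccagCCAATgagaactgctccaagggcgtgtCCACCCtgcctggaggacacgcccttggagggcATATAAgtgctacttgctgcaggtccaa
Hbb-bs: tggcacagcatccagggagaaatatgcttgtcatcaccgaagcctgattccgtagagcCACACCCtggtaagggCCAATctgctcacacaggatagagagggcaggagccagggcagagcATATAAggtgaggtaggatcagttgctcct
Hbb-bt: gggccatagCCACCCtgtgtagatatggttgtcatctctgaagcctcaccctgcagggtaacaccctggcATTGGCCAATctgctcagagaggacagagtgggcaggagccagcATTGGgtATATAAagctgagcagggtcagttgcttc
Alas2: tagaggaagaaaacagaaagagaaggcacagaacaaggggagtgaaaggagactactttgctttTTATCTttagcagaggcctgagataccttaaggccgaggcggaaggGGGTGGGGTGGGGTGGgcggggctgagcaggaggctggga
Klf1: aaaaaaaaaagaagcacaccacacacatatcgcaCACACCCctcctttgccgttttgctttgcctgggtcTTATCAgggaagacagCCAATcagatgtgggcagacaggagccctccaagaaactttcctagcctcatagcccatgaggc
Epor: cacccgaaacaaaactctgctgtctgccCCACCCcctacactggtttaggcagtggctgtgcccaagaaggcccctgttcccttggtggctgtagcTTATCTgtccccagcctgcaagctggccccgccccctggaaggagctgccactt

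The globin promoters printed each held a CACCC word, a CCAAT word and the TATA-like word and no GATA word. Those of Alas2, Klf1 and Epor each held 1 GATA word and a CACCC word and no TATA-like word. Of 32851 RefSeq promoters of the same length, 23.2% held a CACCC word, 24.5% held CCAAT, 16.0% held a GATA word and 5.35% held ATATAA. The Hba-a2 window was identical to that of Hba-a1 over the 147 bases they could be aligned, while Hbb-bs and Hbb-bt were identical at 73.6% of 148 aligned bases. A match is only a match of letters, and a missing word says nothing about more distant enhancers.

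The alpha globin transcripts in the reference differed at 1 of 538 aligned bases, and 67.5% of the 50-base windows of Hba-a1 occurred unchanged in Hba-a2. Between the beta globins, 46 of 626 aligned bases differed, and 65.8% of the 50-base windows of Hbb-bs occurred in Hbb-bt. How reads were shared between such copies is not given in the sources used here, so the split within each pair is uncertain. The tests were also run with each pair summed.

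Libraries held 60984830 to 74691396 counts. Markers of sensory neurons, such as Prph, Avil and Nefl, were abundant in every library: the summed level of 10 of them ran from 1749 to 14987 CPM (counts scaled to library size after TMM normalization). Mouse 64 of DMM with vehicle stood apart among the 10 vehicle libraries. It had the lowest sensory neuron sum of these, at 5232 CPM, and the highest sum of 7 late neutrophil markers, at 7237 CPM. The labels give no batch, but the DMM vehicle mice carried numbers from separate runs, 32 to 34 and 63 to 64, while the DMM mice given AP20187 were numbered 58 to 62.

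Per transcript length, the globins were among the most abundant transcripts of the ganglia. Over the 19 libraries the median level was 1405 FPKM for Hbb-bs, 1118 for Hba-a1, 929 for Hba-a2 and 618 for Hbb-bt. The median rank of Hbb-bs among all genes was 22, and its best rank was 2. The precursor genes lay far lower, at a median of 29.4 FPKM for Alas2, 13.1 for Slc4a1, 1.98 for Klf1 and 1.32 for Epor. This order of the 8 genes held for each neighbouring pair in all 19 libraries, except that Hbb-bs was above Hba-a1 in 18 of 19. The step from Hbb-bt down to Alas2 was 12.5-fold to 23.6-fold within a library. The steps between Hba-a1 and Hba-a2 (1.02-fold to 1.35-fold) and between Klf1 and Epor (1.02-fold to 3.97-fold) were small against the spread between libraries.

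In mice with DMM, the globins were lower with AP20187 than with vehicle. All 4 passed the test, at 3.37-fold to 4.22-fold lower, and so did Slc4a1 among the precursor genes, at 3.88-fold lower. Alas2, Klf1 and Epor had lower means with AP20187 and did not pass, and the median of Epor was higher with AP20187. The globin calls were lost in other fits. Limma voom gave log2 fold changes of -1.52 to -1.30 with adjusted p of 0.0728 to 0.105. Limma on log2(FPKM + 1) gave -1.55 to -1.34 with adjusted p of 0.0863 to 0.126. EdgeR on the DMM groups alone gave -2.01 to -1.69, near the main fit (-2.08 to -1.75), with adjusted p of 0.0696 to 0.105. Slc4a1 passed in both limma fits and had an adjusted p of 0.0550 in the last. The vehicle levels were widely spread, the groups overlapped for all 8 genes, and the number that passed changed when single libraries of either group were left out.

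**Figure D1:**
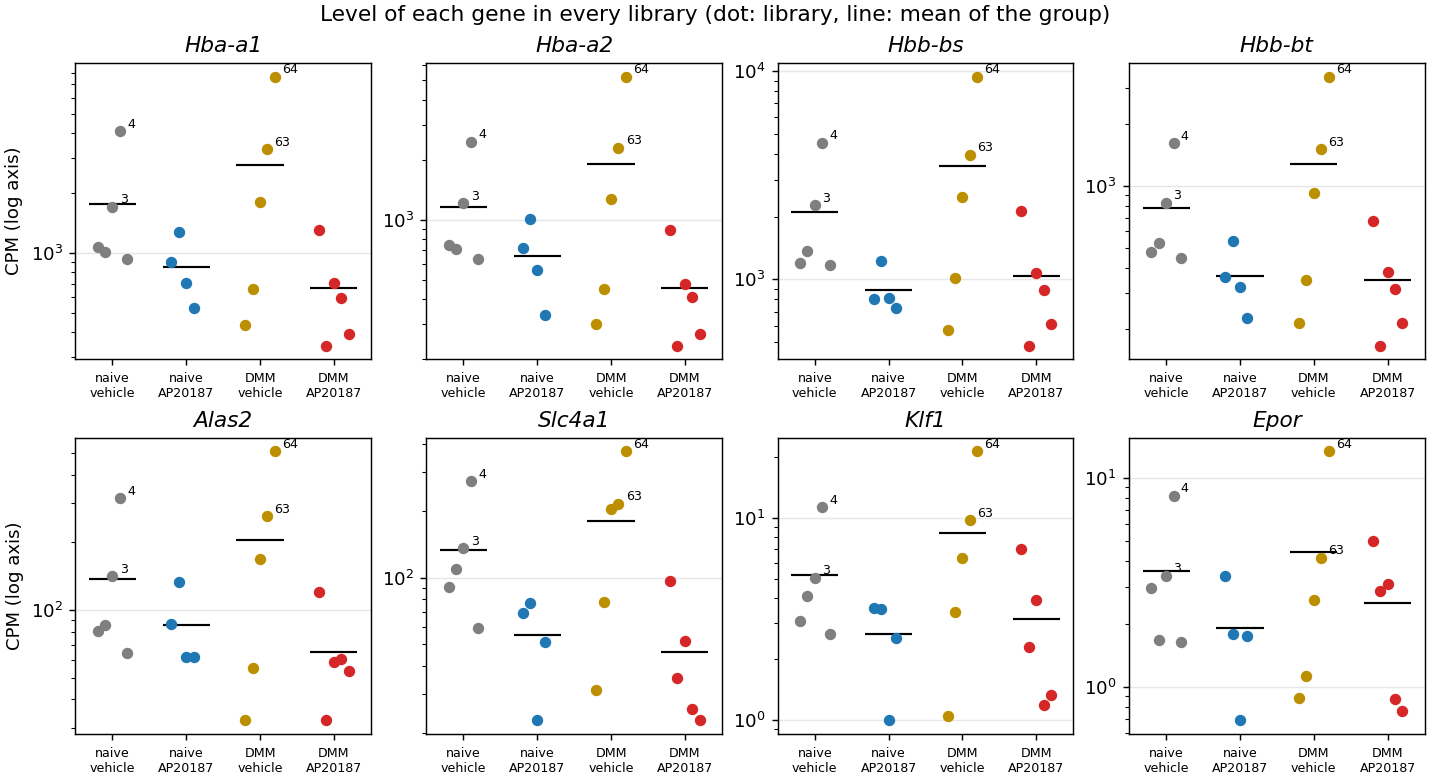
Level of each gene in every library, in CPM on a log axis, by group (dots are libraries, lines are group means, and the numbers mark the 2 highest vehicle libraries of each group). DMM vehicle mouse 64 and naive vehicle mouse 4 were the 2 highest libraries for all 8 genes, and in DMM every AP20187 mouse lay within or below the range of the vehicle mice for each gene.

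Hbb-bs, the more abundant adult beta chain, was at 573, 1016, 2480, 3950 and 9403 CPM in DMM vehicle mice 32, 33, 34, 63 and 64. With AP20187 it was at 2116, 479, 1076, 885 and 611 CPM in mice 58 to 62. Mouse 64 was 16.4 times as high as mouse 32 of its own group, and mice 32 and 33 lay within the range of the AP20187 mice. Means over the 5 mice of a group were 1033 ± 648 CPM after AP20187 and 3485 ± 3565 CPM after vehicle (SD). The fitted log2 fold change was -1.75 (SE 0.61), with an adjusted p of 0.0438 by edgeR's quasi-likelihood F test, Benjamini-Hochberg adjusted over 22778 genes.

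Hba-a1, an adult alpha chain, was at 436, 659, 1788, 3302 and 7666 CPM in the same vehicle mice, in that order. With AP20187 it was at 1298, 341, 703, 596 and 393 CPM. Of the 5 AP20187 mice, 2 were below every vehicle mouse and all 5 were below the vehicle median. The log2 fold change was -2.06 (SE 0.65), with an edgeR adjusted p of 0.0292.

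The other copies gave like values. Hba-a2 averaged 453 ± 261 CPM in treated and 1910 ± 2020 CPM in vehicle mice (SD, n = 5 each), a log2 fold change of -2.08 (SE 0.64, edgeR adjusted p = 0.0269). Hbb-bt, the less abundant beta chain, averaged 349.96 ± 199.9 CPM against 1276 ± 1289, a log2 fold change of -1.87 (SE 0.60, edgeR adjusted p = 0.0326). With each pair summed to a single gene, 6 genes were left and 3 of them passed: the summed alpha globins (log2 fold change -2.06, edgeR adjusted p = 0.0284), the summed beta globins (-1.78, adjusted p = 0.0405) and Slc4a1.

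Among the precursor genes, Slc4a1 was at 31.0, 77.5, 203, 215 and 373 CPM in DMM vehicle mice 32, 33, 34, 63 and 64. With AP20187 it was at 96.6, 35.3, 51.6, 25.5 and 22.8 CPM in mice 58 to 62. Only the AP20187 mouse 58 was above vehicle mouse 33, while vehicle mouse 32 lay inside the AP20187 range. The log2 fold change was -1.96 (SE 0.58), with an edgeR adjusted p of 0.0219, the smallest among the 8 genes.

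Alas2 was at 32.4, 55.1, 169, 261 and 509 CPM in the same vehicle mice. With AP20187 its levels were 121, 32.3, 59.0, 60.5 and 53.6 CPM. Its log2 fold change was -1.65 (SE 0.60, edgeR adjusted p = 0.0532), and it passed with DESeq2 (adjusted p = 0.0200). The 95% interval of that change ran from -2.92 to -0.39.

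Klf1 was at 1.05, 3.42, 6.35, 9.71 and 21.4 CPM in DMM vehicle mice 32, 33, 34, 63 and 64 and at 7.05, 2.28, 3.94, 1.18 and 1.32 CPM in AP20187 mice 58 to 62. No AP20187 mouse was below every vehicle mouse. The log2 fold change was -1.41 (SE 0.66, edgeR adjusted p = 0.124, 95% interval -2.78 to -0.04). Epor was at 0.88, 1.12, 2.59, 4.12 and 13.4 CPM with vehicle and at 4.99, 2.88, 3.11, 0.87 and 0.76 CPM with AP20187. Here 3 of the 5 AP20187 mice were above the vehicle median (2.88 CPM was the AP20187 median and 2.59 the vehicle median), and the log2 fold change was -0.81 (SE 0.70, edgeR adjusted p = 0.440, 95% interval -2.28 to 0.66).

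In all, 5 of the 8 genes passed and were lower. Of all genes tested in this comparison, 23.8% passed in either direction and 12.4% passed and were lower. The median log2 fold change was -1.96 over the globins and -1.53 over the precursor genes, against -0.10 over all genes. In 4.18% of all genes every AP20187 mouse was below every vehicle mouse, and this held for 0 of the 8.

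**Figure D2:**
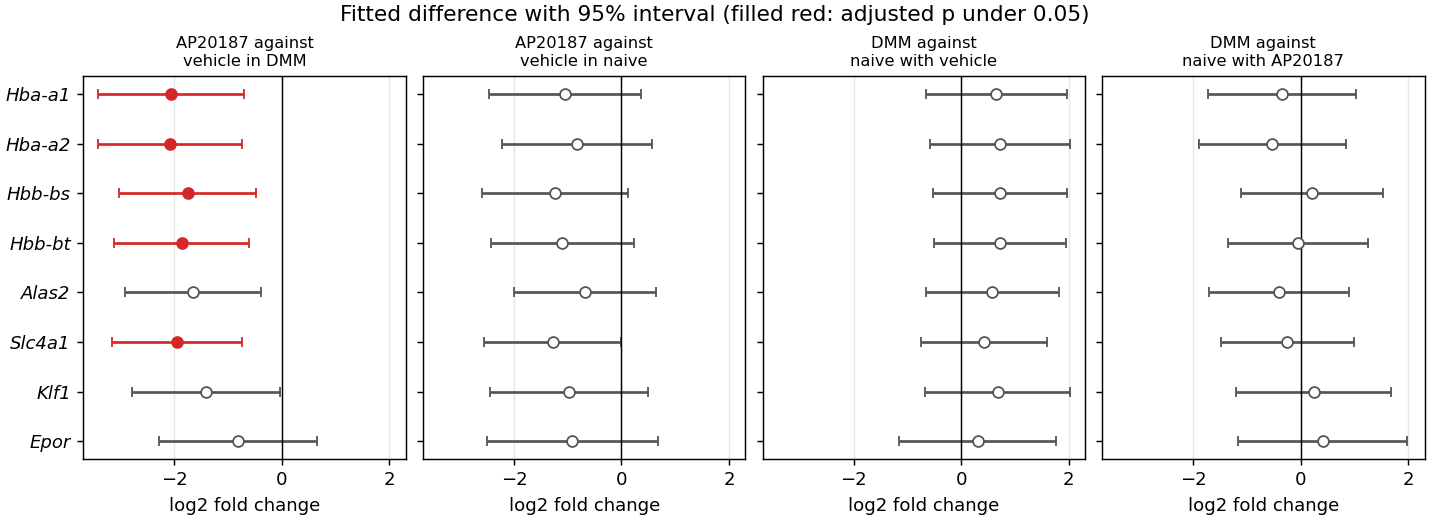
Fitted log2 fold change of each gene with its 95% interval, in the 4 comparisons of groups (filled red points passed at an adjusted p under 0.05). The 4 globins and Slc4a1 passed for AP20187 against vehicle in DMM, and none of the 8 passed in the other 3 comparisons.

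The size of the difference followed which vehicle mice were compared. All 8 genes had the same order among the DMM vehicle mice, lowest in 32, then 33, 34 and 63, and highest in 64. Against mice 32 to 34 alone, Hba-a1 had a log2 fold change of -0.53 (edgeR adjusted p = 0.491) and Hbb-bs of -0.39 (adjusted p = 0.611), while Epor turned to 0.72 (adjusted p = 0.445). Against mice 63 and 64 alone, the same values were -3.03 (adjusted p = 0.0091) and -2.69 (adjusted p = 0.0146). The edgeR count of genes that passed was 0 of 8 in the first case, with 0 also at an unadjusted p under 0.05, and 6 of 8 in the second. Of all genes, 36.3% passed in the first case and 4.73% in the second, so the share over all genes ran the other way. The split lay along the levels themselves, as mice 32 to 34 were the lowest and 63 and 64 the highest for all 8 genes. A smaller and a larger difference were therefore bound to follow. The subsets also differed in size (3 mice and 2 mice), so their counts of calls cannot be compared directly.

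Without mouse 64 only Slc4a1 passed, at a log2 fold change of -1.50 (edgeR adjusted p = 0.0444), while 34.0% of all genes did. Hba-a1 was then at -1.21 (adjusted p = 0.104), Hba-a2 at -1.25 (adjusted p = 0.0911), Hbb-bs at -0.96 (adjusted p = 0.178) and Hbb-bt at -1.09 (adjusted p = 0.118), while Epor turned to 0.21 (adjusted p = 0.834). Leaving out AP20187 mouse 59 or 62 gave 0 of 8 (17.4% and 17.3% of all genes). All 8 changes stayed below zero there, with medians of -1.63 and -1.67, against -1.81 with all libraries. Leaving out AP20187 mouse 60 gave 1 (17.2% of all genes), and leaving out vehicle mouse 63 gave 3 (20.9%). Leaving out AP20187 mouse 58 or vehicle mouse 32 or 33 gave 6, where Alas2 passed too (edgeR adjusted p = 0.0473, 0.0262 and 0.0384), and 14.2%, 15.1% and 15.0% of all genes did. Slc4a1 passed in 8 of the 10 fits that left out a DMM library, Hba-a1 and Hba-a2 in 6, Hbb-bt in 5 and Hbb-bs in 3.

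**Figure D3:**
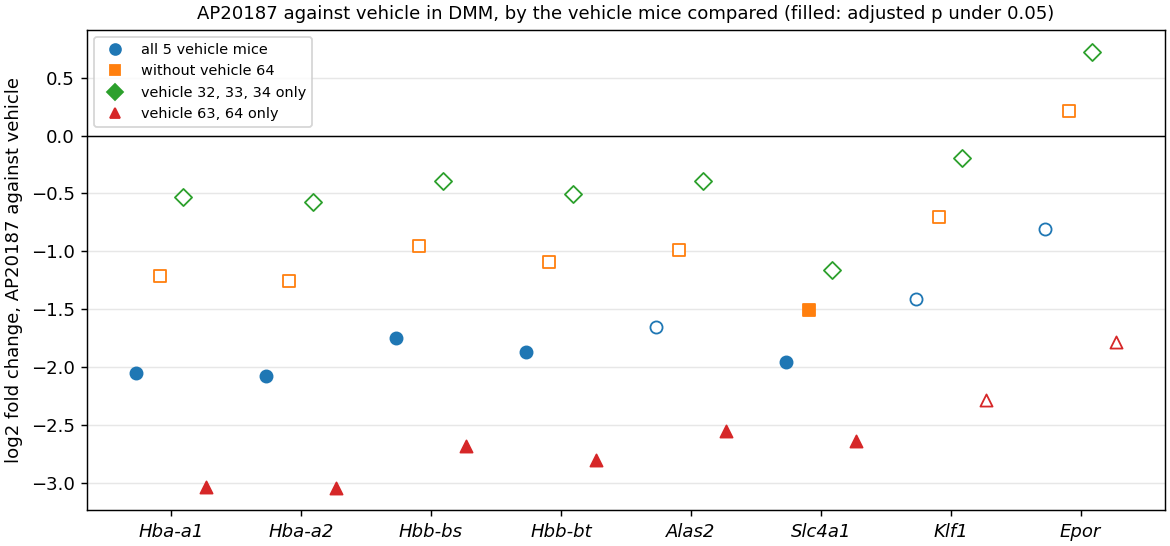
Log2 fold change of AP20187 against vehicle in DMM for each gene, with all 5 vehicle mice, without mouse 64, with mice 32 to 34 only and with mice 63 and 64 only (filled symbols passed at an adjusted p under 0.05). Hba-a1 ran from -0.53 against mice 32 to 34, the lowest vehicle mice, to -3.03 against mice 63 and 64, the highest. Slc4a1 alone passed without mouse 64.

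In naive mice no gene of the 8 passed, although all 8 were lower on average with AP20187. Of all genes, 11.2% passed in this comparison and 2.57% passed and were lower. The edgeR log2 fold changes ran from -0.68 for Alas2 to -1.28 for Slc4a1, with a median of -1.01 against -0.07 over all genes. At an unadjusted p under 0.05 edgeR had 1 gene (Slc4a1, adjusted p = 0.172) and DESeq2 had 2, of which DESeq2 called 0 after adjustment.

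Hbb-bs in naive mice was at 1197, 1372, 2268, 4513 and 1174 CPM with vehicle (mice 1 to 5) and at 803, 1226, 817 and 726 CPM with AP20187 (mice 1, 3, 4 and 5). Of the 4 AP20187 mice, 3 were below every vehicle mouse, and mouse 3 was above vehicle mice 1 and 5. The log2 fold change was -1.24 (SE 0.65, edgeR adjusted p = 0.211, 95% interval -2.59 to 0.12). Hba-a1 was at 1073, 1014, 1706, 4069 and 934 CPM with vehicle and at 896, 1270, 701 and 528 CPM with AP20187, a log2 fold change of -1.05 (edgeR adjusted p = 0.306). Vehicle mouse 4 held the highest level of both. For Hba-a2 and Hbb-bt the log2 fold changes were -0.82 and -1.10.

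Slc4a1 in naive mice was at 90.4, 110, 136, 273 and 59.2 CPM with vehicle and at 69.1, 77.1, 22.7 and 51.2 CPM with AP20187. Its 95% interval ran from -2.55 to -0.0046 on the log2 scale. Alas2 was at 80.5, 85.9, 141, 314 and 64.7 CPM with vehicle and at 86.3, 134, 61.6 and 61.8 CPM with AP20187. For Alas2, 2 of the 4 AP20187 mice were above the vehicle median. Klf1 ran from 2.65 to 11.3 CPM with vehicle and from 0.99 to 3.60 CPM with AP20187, and Epor from 1.64 to 8.21 and from 0.69 to 3.37 CPM. All 4 AP20187 mice were below the vehicle median for Klf1, and 3 of 4 for Epor. Without naive vehicle mouse 4 the median log2 fold change of the 8 genes was -0.48.

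Between DMM and naive mice given vehicle, none of the 8 genes passed by edgeR or by DESeq2, and none did at an unadjusted p under 0.05. Over all genes the share called was 0% by edgeR, with 377 at an unadjusted p under 0.05 and 0 called by DESeq2. The 8 log2 fold changes ran from 0.31 for Epor to 0.73 for Hbb-bs, whose 95% interval was -0.52 to 1.97. All 8 were above zero with mouse 64 and all 8 below zero without it, Hba-a1 moving from 0.66 to -0.19. With mice 63 and 64 as the only DMM vehicle mice, 6 of the 8 had an unadjusted p under 0.05 but none passed, with Hbb-bt at a log2 fold change of 1.71 (edgeR adjusted p = 0.0707, the smallest of the 8), while 2.21% of all genes passed. The spread within DMM vehicle was wide: the highest library was 12.0 times the lowest for Slc4a1 and 20.4 times for Klf1. In naive vehicle mice these ratios were 3.59 (Hbb-bt) to 5.00 (Epor).

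Between DMM and naive mice given AP20187, none of the 8 passed by edgeR or DESeq2 and none had an unadjusted p under 0.05, where 0.702% of all genes were called by edgeR. Log2 fold changes ran from -0.53 for Hba-a2 to 0.41 for Epor. The interval for Hbb-bs was -1.11 to 1.53. These data leave room for differences of about that size. Whether the AP20187 effect differed between DMM and naive mice was tested directly, and 0 of the 8 passed by edgeR or DESeq2, with 0 at an unadjusted p under 0.05 and 0.114% of all genes called. Its values ran from -1.25 for Hba-a2 (95% interval -3.13 to 0.63) to 0.10 for Epor. With mice 63 and 64 as the only DMM vehicle mice, 4 of the 8 had an unadjusted p under 0.05 in this test and none passed (smallest edgeR adjusted p = 0.156). The effects in DMM and in naive mice were thus not shown to differ. The DMM and naive comparisons each used their own controls, while DMM against naive with vehicle shares the vehicle mice with both.

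While the levels spanned 15.8-fold (Alas2) to 22.5-fold (Hba-a1 and Hba-a2) over the 19 libraries, the proportions among the globins moved little. The ratio of alpha to beta globin counts ran from 0.78 to 1.39. For DMM mice it was 0.78 to 0.89 after AP20187 and 0.81 to 1.03 after vehicle, and it was 0.91 to 1.08 in naive vehicle mice. In naive mice with AP20187 it was 1.39, 1.29, 1.10 and 0.90 in mice 1, 3, 4 and 5. The ratio of Hba-a1 to Hba-a2 was 1.25 to 1.26 in naive AP20187 mice 1, 3 and 4 and 1.40 or more in every other library. Naive AP20187 mice 1 and 3 also had the lowest ratios of Hbb-bs to Hbb-bt, 2.22 and 2.27, while mouse 5 had the highest, 3.20. The uncertain split of reads applies to the ratios within a pair of copies, not to that of alpha to beta globins.

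**Figure D4:**
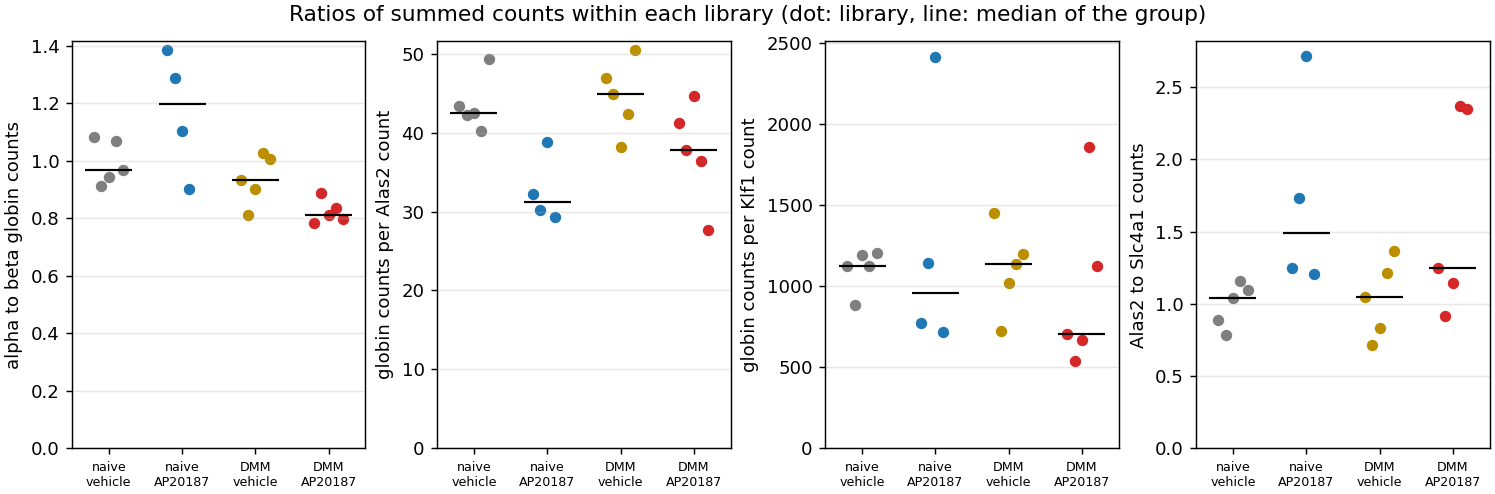
Ratios of counts within each library by group, for alpha to beta globins, globins per Alas2 count, globins per Klf1 count and Alas2 to Slc4a1 (dots are libraries, lines are group medians, axes start at 0). Globins per Alas2 count did not overlap between naive AP20187 (29.3 to 38.9) and naive vehicle (40.2 to 49.3) but overlapped in DMM. Alas2 to Slc4a1 likewise separated in naive mice only. Alpha to beta globins and globins per Klf1 count overlapped in both pairs of groups.

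Globins and precursor genes could be set against each other in the same way, as ratios of counts within a library. In naive mice there were 29.3 to 38.9 globin counts per Alas2 count with AP20187 and 40.2 to 49.3 with vehicle, with no overlap. In DMM mice the same ratio was 27.7 to 44.6 with AP20187 and 38.2 to 50.5 with vehicle, and the groups overlapped. Alas2 counts per Slc4a1 count were 1.21 to 2.72 with AP20187 and 0.78 to 1.15 with vehicle in naive mice, and 0.91 to 2.37 against 0.71 to 1.37 in DMM mice. The globin counts per Klf1 count overlapped in both, at 534 to 1861 against 724 to 1454 in DMM and 714 to 2417 against 880 to 1207 in naive mice. Globin counts per Epor count were 423 to 2535 in DMM with AP20187 and 1735 to 2680 with vehicle, and 3 of the 5 AP20187 libraries (58, 59 and 60) lay below every vehicle library. In naive mice this ratio was 824, 2258, 3478 and 1037 with AP20187 in mice 1, 3, 4 and 5 against 1181 to 2160 with vehicle, so 2 AP20187 libraries lay below and 2 above every vehicle library. Of the ratios compared, only globins per Alas2 count and Alas2 per Slc4a1 count did not overlap, both in naive mice alone. Both hold Alas2. How often other pairs of genes separate in this way was not computed. These ratios are described without a test.

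After group means were subtracted, log2 CPM of the globins was correlated across the 19 libraries at r = 0.980 to 0.997 for the 6 pairs. Alas2 with the globins was at r = 0.978 to 0.984 (4 pairs), below 5 of the 6 globin pairs, whereas Slc4a1, Klf1 and Epor were at r = 0.793 to 0.887 with the globins (12 pairs) and at 0.781 to 0.898 with Alas2 (3 pairs). Among themselves these 3 genes were at r = 0.902 to 0.983. The libraries are shared by all of these values, so they are a description. Among 14472 other genes, the closest to Hbb-bs were Bpgm (r = 0.96), the red cell enzyme that makes bisphosphoglycerate, Isg20 (0.96), Niban3 (0.94), Ppp1r15a (0.94) and Tent5c (0.93). The closest to Klf1 were Rhd (0.98), which encodes the rhesus blood group protein, Ctse (0.98), Trim10 (0.97), Hemgn (0.97), the nuclear protein hemogen of blood precursors, and Btnl10 (0.97).

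The other genes of the pathway came from 5 lists, with 48 genes tested. In DMM mice, 17 were lower with AP20187, 3 were higher and 28 did not pass. Of all genes, 12.4% passed there and were lower and 11.3% passed and were higher. In naive mice, 2 were lower, 2 were higher and 44 did not pass, where 2.57% of all genes were called lower and 8.61% higher. The direction was mostly shared: log2 fold changes were below zero for 40 of the 48 in DMM and 41 of the 48 in naive mice. The other 3 comparisons called 0 of the 48.

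Of the red cell membrane and skeleton genes, 7 of 15 passed in DMM and were lower, and 0 of 15 passed in naive mice. All 15 had a log2 fold change below zero in both, with medians of -1.59 in DMM and -0.78 in naive mice. Rhd had the largest change at a log2 fold change of -2.40 (SE 0.72, edgeR adjusted p = 0.0243), from 14.2 ± 13.6 CPM with vehicle to 2.69 ± 1.96 with AP20187 (SD, n = 5 each). Epb42, which encodes the membrane skeleton protein 4.2, was at -1.92, Add2 (an adducin) at -1.72 and Ank1 (ankyrin) at -1.71. Add2 and Ank1 are also made by neurons, and their levels in naive vehicle mice (304 ± 93.4 and 304 ± 110 CPM, n = 5) were above those in DMM vehicle mice (227 ± 135 and 229.7 ± 133). The summed level of this list did not follow the order of the globins among the DMM vehicle mice, at 976, 1492, 1359, 903 and 962 CPM from mouse 32 to mouse 64. All 10 sensory neuron markers were lower on average with AP20187 in DMM, 5 of them past the threshold. Their part in the change of these genes was not tested.

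Of the late erythroid and reticulocyte genes, 4 of 10 were lower in DMM: Tspan33 at a log2 fold change of -1.78, Bpgm at -1.46, Car2 (carbonic anhydrase) at -1.10 and Xpo7 at -0.90. None of the 10 passed in naive mice, where the smallest unadjusted p was that of Trim58 at -2.001 (edgeR adjusted p = 0.0736). Below zero were 9 of the 10 in DMM and 8 of the 10 in naive mice. Of the minor globins, Hbq1b (a theta globin) fell by 1.19 on the log2 scale in DMM (edgeR adjusted p = 0.0329), from 3.90 ± 1.82 CPM to 1.71 ± 0.68 (SD, n = 5 each). Of the 6 embryonic and theta globins, 4 were in the table and 2 passed the filter on low counts.

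Heme synthesis genes moved in both directions. In DMM, 5 of 12 were lower with AP20187, among them Fech, which inserts the iron into heme, at a log2 fold change of -0.85, Alad at -0.84 and Cpox at -0.67. Alas1, the form of the first enzyme used by cells outside the erythroid line, was higher by 2.47 (SE 0.23, edgeR adjusted p = 5.53e-06), at 209 ± 62.1 CPM against 37.9 ± 4.76 (SD, n = 5 each). It was higher by 1.95 in naive mice too, at 137 ± 48.5 CPM (n = 4) against 35.5 ± 4.99 (n = 5), where Cpox was at -0.66 and Slc25a38, a mitochondrial glycine carrier, at -0.57. Alas2, its erythroid counterpart, was below the vehicle level on average in both and passed in neither.

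Of the erythroid transcription regulators, 2 of 9 passed in DMM and both were higher with AP20187. Nfe2, which also acts in megakaryocytes and myeloid cells, had a log2 fold change of 1.66 (edgeR adjusted p = 0.0357), and Myb, a factor of blood progenitors of many lineages, of 1.54 (adjusted p = 0.0391). In naive mice Nfe2 was higher by 2.13 and no other of the 9 passed. Gata1, the partner of Klf1, was at 0.55, 1.89, 3.25, 5.48 and 14.3 CPM in DMM vehicle mice 32, 33, 34, 63 and 64, the order of the globins, and at 6.71, 1.83, 4.93, 1.89 and 5.60 CPM with AP20187.

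**Figure D5:**
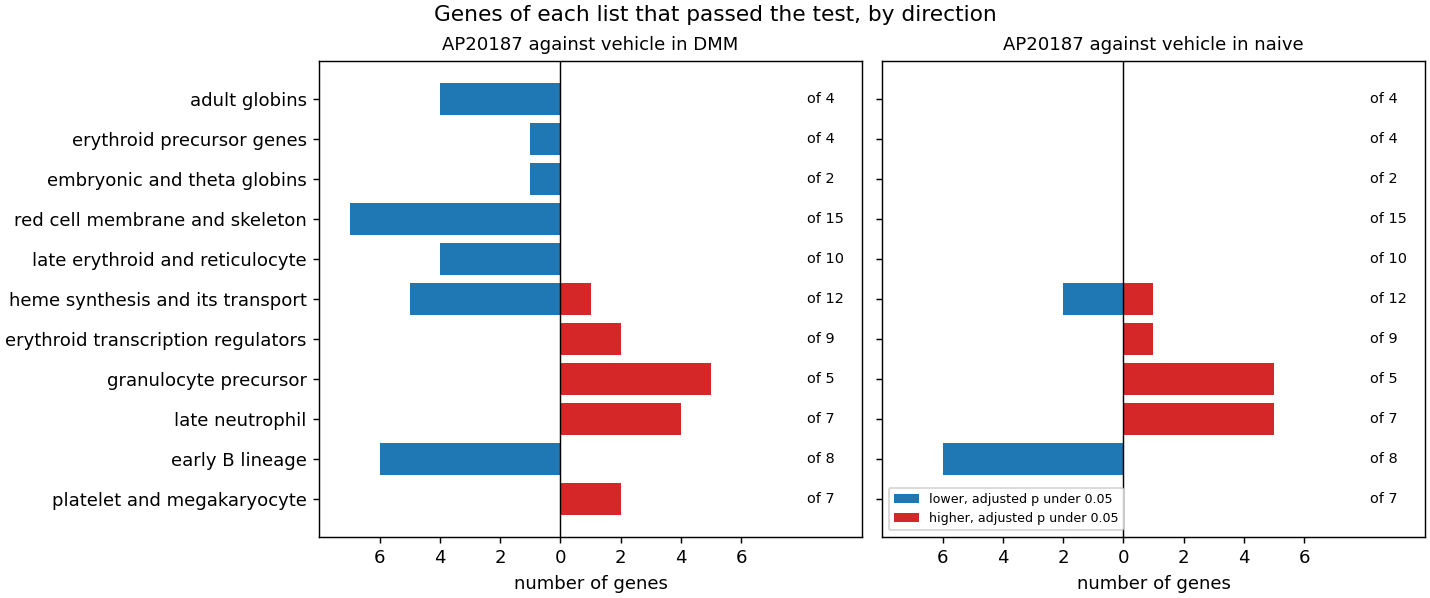
Number of genes of each list that passed at an adjusted p under 0.05, lower to the left and higher to the right of zero, for AP20187 against vehicle in DMM and in naive mice (the number tested stands at the right). In DMM the red cell membrane list had 7 lower genes, and in both comparisons the early B list had 6 lower and the granulocyte precursor list 5 higher.

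Markers of other blood cells moved with the same contrasts. Of 5 granulocyte precursor markers, such as Mpo and Elane, all 5 were higher with AP20187 in DMM and in naive mice, and of 7 late neutrophil markers 4 and 5 were higher. Of 8 early B lineage markers, 6 were lower in both comparisons, and their summed level was 3.07 to 6.32 CPM in DMM with AP20187 against 6.24 to 102 with vehicle. Of 7 platelet and megakaryocyte markers, 2 passed and were higher in DMM and 0 in naive mice. Their median log2 fold change was 1.38 in DMM and 1.46 in naive mice, with 0 of 7 below zero in both. Of all genes, 11.3% were called higher and 12.4% lower in DMM, and 8.61% higher and 2.57% lower in naive mice. The late neutrophil sum was 14249 to 23981 CPM in DMM with AP20187 against 371 to 7237 with vehicle, and 6711 to 23992 against 775 to 2122 in naive mice. The granulocyte precursor sum was 1222 to 2625 CPM in DMM with AP20187 against 30.2 to 404 with vehicle, and 319 to 1690 against 45.6 to 115 in naive mice.

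Of 5 endothelial markers, genes of the cells that line vessels, Pecam1 and Tek passed and were higher with AP20187 in DMM (11.3% of all genes were called higher) and Tek in naive mice (8.61%). Their sum was 127 to 231 CPM in DMM with AP20187 against 57.7 to 121 with vehicle, without overlap, and 171 to 383 against 53.7 to 272 in naive mice. Naive vehicle mouse 4, the highest naive library for the globins, held the 272 CPM, while the other naive vehicle mice were at 53.7 to 105 CPM. The part of vessels in the globin levels was not tested.

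Among the DMM vehicle mice the late neutrophil, granulocyte precursor and early B sums had the order of the globins, and the platelet and megakaryocyte sum did not. From mouse 32 through 33, 34 and 63 to 64, the globin sum was 1524, 2472, 6467, 11051 and 25695 CPM. The late neutrophil sum was 371, 613, 1922, 2510 and 7237 CPM, and the early B sum 6.24, 14.8, 36.1, 46.8 and 102 CPM. The platelet and megakaryocyte sum was 14.1, 29.3, 22.6, 49.1 and 188 CPM, with mouse 34 below mouse 33. The sensory neuron sum was 12723, 13462, 11191, 10481 and 5232 CPM. Within that group the mice with high globins thus had high neutrophil and early B markers, whereas in AP20187 against vehicle in DMM the 4 globins and 6 of 8 early B markers were lower and 4 of 7 late neutrophil markers higher. The part of these cells, and of the share of neuronal RNA, in the globin difference was not tested.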

How the data were processed

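Poly(A) RNA of pooled ganglia of 19 mice was sequenced with a stranded library protocol, per the labels. The submitters' processing notes name cutadapt, HISAT2, StringTie and build GRCm39, without versions or roles, and the annotation is not given in the sources used here. Whole counts for each gene, not normalized, and FPKM (scaled to gene length and depth) were used as deposited by the authors. Library totals were 60984830 to 74691396 counts. The labels only number the samples, each taken here as 1 mouse, so p-values measure the spread between these samples.

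The test was edgeR's (version 4.0.16, R 4.3.3): quasi-likelihood F test, TMM, filterByExpr (minimum count 10; 22778 genes), a single model of 4 group means on 19 libraries with 15 residual degrees of freedom, and 5 two-sided contrasts. P-values were adjusted by Benjamini-Hochberg over the genes tested, with a threshold of 0.05. The pipeline was tested on simulated data. Alternatives used limma 3.58.1 (voom, and log2(FPKM + 1) for genes above 0.1 FPKM in 4 libraries), DESeq2 1.42.0, other scalings, filters and subsets of mice. CPM are counts scaled to the library size after TMM.

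All genes of the rule were named, and up to 4 genes a list, by the largest change among those that passed with a group mean of at least 1 CPM (where none passed, by the smallest unadjusted p). Gata1 was named as the partner of Klf1, and its values, like the examples of cell type markers, fall outside that rule. The members and lists were chosen with earlier results of these data known. Correlations used log2 CPM with a prior count of 2. Promoters and transcripts came from references of build GRCm38 and were matched by symbol. No sequence of Slc4a1 and no protein sequence was used here.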

Additional observations from a re-analysis of the deposited data

Results flagged for a closer look

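Levels of the 8 genes and 8 ratios between them were searched in each group for a library whose gap to the nearest other exceeded Dixon's 95% critical value (0.829 for 4 libraries, 0.71 for 5). This flagged 8 of 64 sets of values. Chance flags about 5% of independent, normally distributed sets. These sets hold CPM without a log and ratios that share libraries and counts, so the count cannot be read against that rate. Epor was at 13.4 CPM in DMM vehicle mouse 64, the highest of its group. Naive vehicle mouse 4 was highest in its group for Hba-a1 at 4069 CPM, for Klf1 at 11.3 CPM and for Epor at 8.21 CPM. That mouse also had the highest ratio of Hba-a1 to Hba-a2 among naive vehicle libraries, at 1.65. The same ratio was 1.58 in naive AP20187 mouse 5, apart from the 3 other libraries of its group. The ratio of Hbb-bs to Hbb-bt was 3.13 in DMM AP20187 mouse 58, the highest of its group. Globin counts per Klf1 count were lowest in naive vehicle mouse 2, at 880.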

How the results depend on the processing

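For AP20187 against vehicle in DMM, 5 of the 8 genes passed (23.8% of all genes did). The count was 6 with DESeq2 (30.5% of all genes), 5 with library sizes alone (24.7%) and 5 with globins left out of the scaling (24.0%). With paralogs summed it was 3 of 6 genes (23.7%), and with no filter on low counts 3 (11.3%). Limma voom gave 1 (25.2%) and limma on log2(FPKM + 1) gave 1 (25.3%), Slc4a1 in both. It was 0 in edgeR fitted to these groups only (19.8% of all genes, with 6 of the 8 at an unadjusted p under 0.05). Against vehicle mice 32 to 34 it was 0 (36.3%, with 0 unadjusted). Leaving out each library gave 0 to 6. The other 4 comparisons had 0 under every alternative run (in DMM against naive with vehicle, 6 of 8 were at an unadjusted p under 0.05 with vehicle mice 63 and 64 only, and 4 of 8 in the interaction), and no alternative scaling of the counts moved the median of all genes by more than 0.1 on the log2 scale, whereas limma on log2(FPKM + 1) moved that of the interaction from -0.0796 to 0.0526. Of the values per gene, 111 of 160 in DMM kept their side of the threshold and direction, and 144 of 144 in naive mice did.

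Some values changed sign on the log2 scale. With vehicle mice 32 to 34 only, Epor was 0.72 for AP20187 in DMM. In DMM against naive with vehicle the 8 values were then -0.87 (Hba-a1), -0.78 (Hba-a2), -0.63 (Hbb-bs), -0.65 (Hbb-bt), -0.68 (Alas2), -0.36 (Slc4a1), -0.54 (Klf1) and -1.22 (Epor). The interaction was then 0.52 (Hba-a1), 0.25 (Hba-a2), 0.84 (Hbb-bs), 0.60 (Hbb-bt), 0.29 (Alas2), 0.12 (Slc4a1) and 0.78 (Klf1). Epor was -0.91 in the interaction with mice 63 and 64 only, and -0.11 with voom in DMM against naive with vehicle. Hbb-bt in DMM against naive with AP20187 was 0.0609 with library sizes alone and 0.0204 with FPKM. With each pair summed, the summed beta globins were at 0.14 there, where Hbb-bs alone was at 0.21 in the main fit. The cause of these changes was not tested.

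Leaving out each library gave ranges that crossed zero. For Epor in DMM it was -1.21 to 0.21. For DMM against naive with vehicle it was -0.19 to 1.23 (Hba-a1), -0.10 to 1.21 (Hba-a2), -0.0702 to 1.21 (Hbb-bs), -0.0548 to 1.17 (Hbb-bt), -0.0855 to 1.14 (Alas2), -0.0207 to 0.86 (Slc4a1), -0.0278 to 1.17 (Klf1) and -0.71 to 0.87 (Epor). For DMM against naive with AP20187 it was -0.23 to 0.41 (Hbb-bs), -0.43 to 0.22 (Hbb-bt) and -0.29 to 0.45 (Klf1). For the interaction it was -1.004 to 0.28 (Hbb-bs), -1.22 to 0.0039 (Hbb-bt), -0.97 to 0.27 (Klf1) and -0.46 to 1.12 (Epor).

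The naive groups share the numbers 1, 3, 4 and 5. Same-numbered libraries deviated together with r = 0.02, 0.30, -0.08 and 0.18. Among vehicle libraries 1, 3, 4 and 5, numbers 3 and 5 correlated best with their own number and the others did not. These values cannot exclude pairing. The labels give only the numbers, and the main fit treated the libraries as unpaired. With the replicate block, 0 of 8 passed (3 at an unadjusted p under 0.05) and the median log2 fold change was -0.94. The limits are 4 or 5 mice a group, a 12.0-fold to 20.4-fold spread within DMM vehicle, and low Epor and Klf1 counts (41 to 1456 a library).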
